A study of Mus musculus with 5 samples.

Results

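The SLAM family receptors were followed in mouse LSK cells, bone marrow cells sorted for Sca1 and cKit and against lineage antigens, among which are the haematopoietic stem cells and early progenitors. The 8 members, Slamf1, Cd48, Ly9, Cd84, Slamf6, Slamf7, Slamf8 and Slamf9, were chosen by name from the 24399 genes of the count table. All 8 had counts and all 8 entered the test, which covered 14565 genes.

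Messenger RNA was sequenced from LSK cells sorted from bone marrow of femurs, tibiae and iliac crests of C57BL/6 mice aged 12 months. There were 3 libraries titled KO, from mice with a germ line knockout that every cell type carries, and 2 libraries titled WT, from wild-type mice. For the libraries titled KO the labels list the genotype as +/-, and the study's design names both heterozygous and homozygous animals. Those 3 libraries are therefore called KO-labelled. The labels do not say whether libraries came from separate or pooled animals, so p-values reflect the spread among these 5 samples alone, and that spread may be technical.

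SLAM receptors are immunoglobulin-type surface proteins of blood cells. Most bind a copy of themselves on a neighbouring cell and signal through SH2-domain adapters of the SAP family, which dock on tyrosine motifs in the receptor tail. CD48, the Cd48 product, is instead held by a lipid anchor and is the ligand of CD244 and CD2. Slamf8 and Slamf9 have short tails without those tyrosine motifs. Within LSK cells the family has a practical use: stem cells are sorted as positive for CD150, the Slamf1 product, and negative for CD48, while most multipotent progenitors further along carry CD48. CD229, the Ly9 product, and CD244 are used to divide the same cells further.

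Counts of 1 transcript per gene summed to 36060320, 39423495 and 39691066 in KO libraries 1 to 3 and to 29964556 and 38674416 in WT libraries 1 and 2. A count of 3, taken as the floor, was worth 0.0756 to 0.1 CPM, that is, counts scaled to a common library total. Kit, which defines the LSK gate, was abundant in all 5 libraries, with 1086 to 1144 CPM in KO-labelled libraries, against 1205 and 1227 CPM in WT libraries. So was Cd34, a progenitor marker, with 1182 to 1387 CPM in KO-labelled libraries, against 1378 and 1228 CPM in WT libraries. Ly6a, which encodes Sca1, had 90.4 to 104.5 CPM in KO-labelled libraries, against 74.9 and 82.0 CPM in WT libraries. All KO-labelled values of Ly6a lay above both WT values, and all those of Kit lay below. Neither gene passed the test. Over tested genes, log2(CPM + 1) correlated best between KO libraries 2 and 3 (0.9938), and KO library 1 correlated with the others at 0.9837 to 0.9888. The test called 115 genes higher and 172 genes lower in KO-labelled libraries. That total rested on both WT libraries, since leaving out WT library 1 left 6 genes and leaving out WT library 2 left 18.

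The start regions of 3 members are shown first: Slamf9, the member that passed the test, and Slamf8 and Slamf7, which did not pass but were higher in every KO-labelled library than in both WT libraries. Promoter sequences were found for 7 of the 8 members in RefSeq's table (build GRCm38.p6); Ly9 had no entry. Each line gives the 250 bases before the start, 5′ to 3′ on the gene's own strand, with the letters CANNTG in capitals.

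Slamf9: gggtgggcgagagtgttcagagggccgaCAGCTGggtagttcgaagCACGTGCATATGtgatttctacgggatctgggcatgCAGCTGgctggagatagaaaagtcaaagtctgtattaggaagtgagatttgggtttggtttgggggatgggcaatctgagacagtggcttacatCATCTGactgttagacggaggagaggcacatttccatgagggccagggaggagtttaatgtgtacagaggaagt

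Slamf8: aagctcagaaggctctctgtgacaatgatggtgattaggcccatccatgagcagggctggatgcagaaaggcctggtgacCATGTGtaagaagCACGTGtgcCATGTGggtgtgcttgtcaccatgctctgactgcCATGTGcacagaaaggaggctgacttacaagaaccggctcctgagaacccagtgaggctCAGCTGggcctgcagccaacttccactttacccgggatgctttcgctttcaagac

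Slamf7: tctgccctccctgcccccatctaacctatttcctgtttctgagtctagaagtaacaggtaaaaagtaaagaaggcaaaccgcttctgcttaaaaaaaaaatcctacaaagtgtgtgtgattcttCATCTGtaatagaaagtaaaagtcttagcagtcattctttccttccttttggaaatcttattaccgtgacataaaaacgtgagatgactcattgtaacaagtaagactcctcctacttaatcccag

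These lie on chromosome 1, at chr1:172475110-172475359 (plus strand) for Slamf9, chr1:172590569-172590818 (minus strand) for Slamf8 and chr1:171649000-171649249 (minus strand) for Slamf7. CANNTG is the E-box core and reads the same on both strands. It occurred 5 times for Slamf9, 2 of them side by side, 5 times for Slamf8 and 1 time for Slamf7. It occurred 1 time in each of the windows of Slamf1, Cd48, Cd84 and Slamf6. Of 32851 promoters in the table, 66.2% held at least 1 such match in the same window and 1.15% held at least 5. The other letters searched on both strands were GAGGAA, found 1 time in Slamf9 and in 23.3% of all promoters, and an interferon response element of the ISRE type, found 1 time in Slamf8 and in 2.98%. AGATAA (9.99% of promoters) and TATAAA (12.4%) were found in none of these windows. These matches describe the letters only, and the motifs were chosen after the expression values were known. CANNTG was put in capitals after its matches were seen. The cut of 5 is the number found in Slamf9 and in Slamf8, so the 1.15% is a description and not a test.

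Per kilobase of the kept transcript, the members spanned a wide range of levels, and Cd48 was the highest. In the KO-labelled libraries Cd48 stood at 97.1 ± 12.3 CPM per kb (SD, n = 3), and in the WT libraries at 123 ± 26.2 CPM per kb (SD, n = 2). Cd84, whose product binds itself on neighbouring cells, came next. In KO-labelled libraries it stood at 58.3 ± 2.29 CPM per kb, and in WT libraries at 67.9 ± 0.462 CPM per kb, by a transcript of 1503 bases. By a transcript of 3291 bases with identical counts it stood at 26.6 ± 1.04 CPM per kb in KO-labelled libraries and at 31.0 ± 0.211 CPM per kb in WT libraries. With either length the mean of Cd84 lay below that of Cd48 and above that of Ly9.

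Ly9 followed at 22.0 ± 2.71 CPM per kb in KO-labelled libraries and 19.3 ± 2.99 CPM per kb in WT libraries. Slamf1 stood at 9.71 ± 2.12 CPM per kb in KO-labelled libraries and 13.1 ± 1.61 CPM per kb in WT libraries. The ranges of these 4 genes did not overlap between neighbours in that order, in either group. Among the low members the order was not the same in the groups. In the KO-labelled libraries Slamf8 (3.52 ± 0.61 CPM per kb), Slamf7 (3.38 ± 1.35) and Slamf9 (2.19 ± 0.572) had overlapping ranges between neighbours, and Slamf6 was lowest at 0.311 ± 0.0285. In the WT libraries Slamf7 (1.69 ± 0.522 CPM per kb) and Slamf8 (1.35 ± 0.029) overlapped, Slamf6 stood at 0.529 ± 0.198, and Slamf9 was lowest at 0.169 ± 0.202. The values below are in CPM and compare a gene only with itself.

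**Figure D1:**
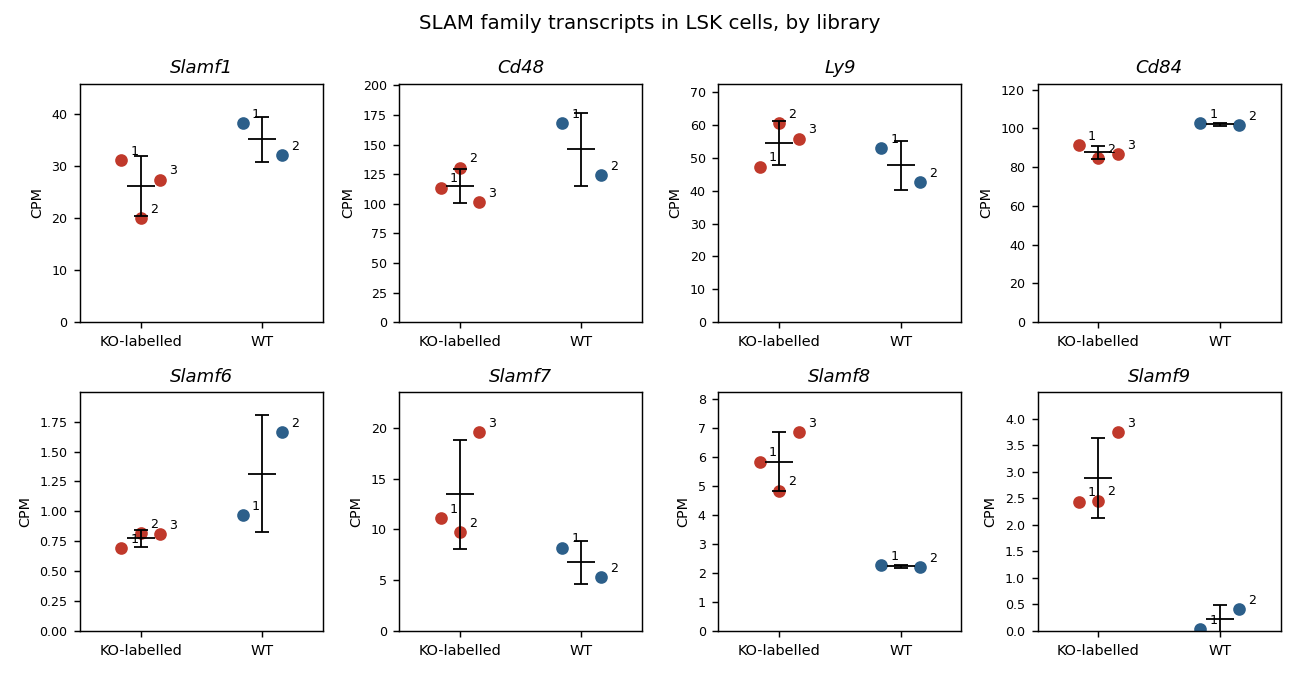
CPM of each member in each library (points, numbered by library), with KO-labelled libraries left of WT and the mean ± SD in black; each panel has its own axis from 0, which cuts off the lower end of 1 SD bar (Slamf9, WT). Slamf7, Slamf8 and Slamf9 lie higher in all 3 KO-labelled libraries than in both WT libraries, and Slamf1, Cd84 and Slamf6 lie lower.

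Of the 8 members, Slamf9 rose and 0 fell in the KO-labelled libraries. By the same rule, edgeR's quasi-likelihood test at an adjusted p under 0.05, 1.97% of all tested genes passed, 0.79% higher and 1.18% lower. At an unadjusted p under 0.05, 3 members were higher and 3 lower, and 13.8% of all tested genes passed, 6.76% higher and 7.02% lower. DESeq2 called 2 members higher, Slamf8 and Slamf9, and limma with sample weights called 0; both called 0 lower. The groups did not overlap for 6 members, 3 above and 3 below, and for 32.8% of all tested genes (16.5% above, 16.3% below). The log2 fold change was above 0 for 4 of 8 members and for 50.1% of all tested genes. The median log2 fold change of the members was -0.01, and that of all tested genes was 0.001.

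Slamf1 and Cd48, the surface markers that part stem cells from progenitors, both averaged lower in the KO-labelled libraries, and neither passed the test. Slamf1 had 31.1, 19.9 and 27.4 CPM in KO libraries 1 to 3, against 38.2 and 32.1 CPM in WT libraries 1 and 2. All KO-labelled values lay below both WT values, although KO library 1 and WT library 2 differed by about 1 CPM. The log2 fold change was -0.43 ± 0.18 (SE), with an adjusted p = 0.307 by edgeR's quasi-likelihood test. It was -0.57 without KO library 1 (edgeR adjusted p = 0.0503) and -0.27 without KO library 2 (edgeR adjusted p = 0.539). Leaving out WT library 1 gave -0.29, and leaving out WT library 2 gave -0.55.

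Cd48 had 114, 130 and 101 CPM in KO libraries 1 to 3, against 168 and 124 CPM in WT libraries 1 and 2. Here the groups overlapped, since KO library 2 lay above WT library 2, and WT library 1 stood apart on the high side. The log2 fold change was -0.34 ± 0.13 (edgeR adjusted p = 0.281), and leaving out WT library 1 gave -0.10 ± 0.15, while leaving out WT library 2 gave -0.54 ± 0.15. In bulk libraries such as these, fewer cells of a type and less RNA per cell cannot be told apart.

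The balance of these markers within a library does not depend on how libraries are scaled. Slamf1 had 27.4, 15.3 and 27.1 counts per 100 Cd48 counts in KO libraries 1 to 3, against 22.8 and 25.9 in WT libraries 1 and 2. KO libraries 1 and 3 thus stood above both WT libraries, and KO library 2 below both. The log2 ratio averaged -2.15 ± 0.48 in KO-labelled libraries (SD, n = 3) and -2.04 ± 0.13 in WT libraries (SD, n = 2), a difference of -0.11 (two-sided exact permutation p = 1). The smallest p that 3 against 2 libraries can give here is 0.2. Without KO library 2 the difference was 0.16, so its sign rests on that library.

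**Figure D2:**
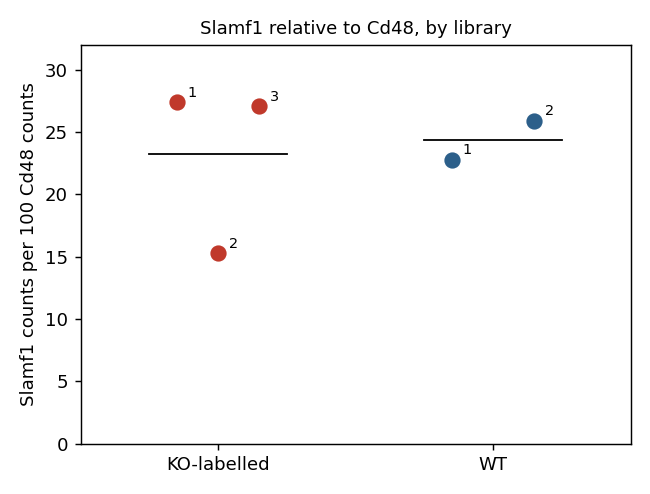
Slamf1 counts per 100 Cd48 counts in each library (points, numbered by library), with KO-labelled left of WT and the group mean as a bar. KO library 2, at 15.3, is the lowest point, and KO libraries 1 and 3 (27.4 and 27.1) are the highest.

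Among the self-binding receptors with signalling tails, Ly9 and Cd84 were well expressed, and Slamf6 was barely detected. Ly9 had 47.3, 60.5 and 55.9 CPM in KO libraries 1 to 3, against 53.0 and 42.5 CPM in WT libraries 1 and 2, and the groups overlapped (log2 fold change 0.19 ± 0.14, edgeR adjusted p = 0.592). Cd84 had 91.4, 84.7 and 86.7 CPM in KO-labelled libraries and 102.6 and 101.6 CPM in WT libraries. All KO-labelled values lay below both WT values, by a small margin (log2 fold change -0.22 ± 0.09, edgeR adjusted p = 0.304). Slamf6, known from T, B and NK cells, had 25, 32 and 32 counts in KO-labelled libraries, against 29 and 65 counts in WT libraries. That is 0.692 to 0.819 CPM in KO-labelled libraries, against 0.967 and 1.66 CPM in WT libraries, and the difference did not pass (log2 fold change -0.77 ± 0.74, edgeR adjusted p = 0.719).

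The table holds several transcripts for both Ly9 and Cd84, and transcripts of 1 gene can share reads. For Cd84, the transcript with the fewest counts held 18.5%, 17.9% and 17.6% of the counts of the highest in KO libraries 1 to 3, against 17.6% and 13.97% in WT libraries 1 and 2. For Ly9 that share was 91.4%, 87.3% and 89.4% in KO-labelled libraries, against 85.5% and 89.2% in WT libraries. The Ly9 shares overlapped between the groups, and for Cd84 the lowest KO-labelled share and the highest WT share were almost equal. The Ly9 transcript kept for its counts is a non-coding RefSeq entry, with counts equal to those of a coding entry in 4 of 5 libraries. In the annotation Cd84 overlaps the long non-coding gene Gm51686, for which no strand was found. Slamf6 overlaps the long non-coding gene Gm37065, which lies on the opposite strand. Strand use in the counting is not known, so reads of these non-coding genes could be counted with those of Cd84 and Slamf6.

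Slamf7, Slamf8 and Slamf9 were the members with all KO-labelled values above both WT values, and of these Slamf9 passed the test. Slamf7, a self-binding receptor of NK cells, plasma cells and other activated blood cells, had 11.1, 9.7 and 19.6 CPM in KO libraries 1 to 3, against 8.2 and 5.27 CPM in WT libraries 1 and 2. All KO-labelled values lay above both WT values, and KO library 3 stood apart on the high side. The log2 fold change was 1.0 ± 0.32 and did not pass (edgeR adjusted p = 0.171), and it was 0.63 ± 0.30 without KO library 3.

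Slamf8, known from macrophages and dendritic cells, had 5.84, 4.84 and 6.86 CPM in KO libraries 1 to 3, against 2.27 and 2.2 CPM in WT libraries 1 and 2. These values rest on 211, 189 and 271 counts in KO-labelled libraries and 68 and 86 counts in WT libraries. The groups were well apart, and the WT libraries were close to each other. The log2 fold change was 1.39 ± 0.33, at an adjusted p = 0.0564 by edgeR's quasi-likelihood test, so Slamf8 did not pass. It passed with DESeq2 (adjusted p = 0.00671) and without KO library 1 (adjusted p = 0.036), and over all 14 alternatives its adjusted p ran from 0.00671 to 0.409.

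Slamf9, known in mice from plasmacytoid dendritic cells and other myeloid cells, had 88, 96 and 148 counts in KO libraries 1 to 3, against 1 and 16 counts in WT libraries 1 and 2. In CPM that is 2.44, 2.46 and 3.75 in KO-labelled libraries and 0.0333 and 0.409 in WT libraries. WT library 1 lay under the floor, and the highest WT value lay well below the lowest KO-labelled value. Slamf9 rose 12.3-fold (log2 fold change 3.62 ± 0.80, edgeR adjusted p = 0.0376). The size is uncertain, since leaving out WT library 1 gave 2.81 ± 0.69 and leaving out WT library 2 gave 6.29 ± 0.99.

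The direction of Slamf9 held in all 14 alternatives, and its call did not. It was kept in 7 of 14 alternatives and lost without KO library 2 (adjusted p = 0.0594), without KO library 3 (adjusted p = 0.201) and without WT library 1 (adjusted p = 0.273) or 2 (adjusted p = 0.0783). It was also lost with limma and sample weights (adjusted p = 0.0865), with a replicate block (adjusted p = 0.0849) and with all transcripts of a gene summed (adjusted p = 0.0967). Slamf9 reached the filter on low counts, 0.259 CPM in at least 2 libraries, through the KO-labelled libraries and WT library 2. In the annotation it overlaps a pseudogene on the same strand, Gm7804, so reads of that pseudogene could be counted with it. Slamf7, Slamf8 and Slamf9 all had their highest value in KO library 3.

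The receptor partners outside the 8 members did not pass. Cd244a, which encodes CD244, the receptor of CD48, had 29.0, 33.3 and 25.9 CPM in KO libraries 1 to 3, against 32.1 and 33.9 CPM in WT libraries 1 and 2 (log2 fold change -0.17 ± 0.14, edgeR adjusted p = 0.674). Cd2, the other CD48 receptor, had 65, 20 and 24 counts in KO-labelled libraries and 24 and 24 counts in WT libraries (log2 fold change 0.46 ± 0.90, edgeR adjusted p = 0.883). For Cd2, KO library 1 alone lay above the WT libraries, and without it the log2 fold change was -0.33.

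The SAP-type adapters were close to absent. Sh2d1a, which encodes SAP itself, had 0, 7 and 0 counts in KO libraries 1 to 3, against 0 and 23 counts in WT libraries 1 and 2, and was not tested. Sh2d1b1, which encodes EAT-2, had 53, 44 and 38 counts in KO-labelled libraries and 49 and 21 counts in WT libraries, with overlapping groups. Sh2d1b2 had 0 counts in all 5 libraries.

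The kinases and phosphatases that SLAM receptors can engage were present. Fyn, the kinase that SAP brings to the receptors, had 85.1, 92.9 and 97.5 CPM in KO libraries 1 to 3, against 77.6 and 98.4 CPM in WT libraries 1 and 2, with overlapping groups. Inpp5d, which encodes the lipid phosphatase SHIP-1, had 362 to 456 CPM in KO-labelled libraries, against 367 and 361 CPM in WT libraries (edgeR adjusted p = 0.538). Plcg2, a phospholipase, had 494 to 547 CPM in KO-labelled libraries, against 570 and 587 CPM in WT libraries (edgeR adjusted p = 0.505). Of 21 tested genes of the adapter and signalling list, 0 rose and 0 fell, by edgeR, by DESeq2 and by limma. At an unadjusted p under 0.05, 0 were higher and 1 was lower, against 6.76% and 7.02% of all tested genes. The list median was 0.09.

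On chromosome 1 the members lie in the order Ly9, Slamf7, Cd48, Slamf1, Cd84 and Slamf6, with Cd244a beside Ly9, and Slamf9 and Slamf8 lie further on, with 5 other genes of the table between them. Of 24 tested neighbours, 10 genes on each side of both blocks and those between the members, 0 rose and 0 fell by edgeR, DESeq2 and limma. At an unadjusted p under 0.05, 1 neighbour was higher and 2 were lower, against 6.76% and 7.02% of all tested genes. Igsf9, next to Slamf9, had 2.52 to 3.37 CPM in KO-labelled libraries and 4.1 and 3.2 CPM in WT libraries, which overlap. Pigm, on the other side, had 39.8 to 43.5 CPM in KO-labelled libraries and 46.0 and 47.6 CPM in WT libraries (log2 fold change -0.16 ± 0.11, edgeR adjusted p = 0.59). Neither gene flanking Slamf9 had a KO-labelled value above both WT values. Tagln2, which lies between Slamf9 and Slamf8, had all KO-labelled values above both WT values. It had 662 to 749 CPM, against 655 and 638 CPM in WT libraries (log2 fold change 0.11 ± 0.08, edgeR adjusted p = 0.62). Without KO library 1, 1 neighbour fell, F11r.

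**Figure D3:**
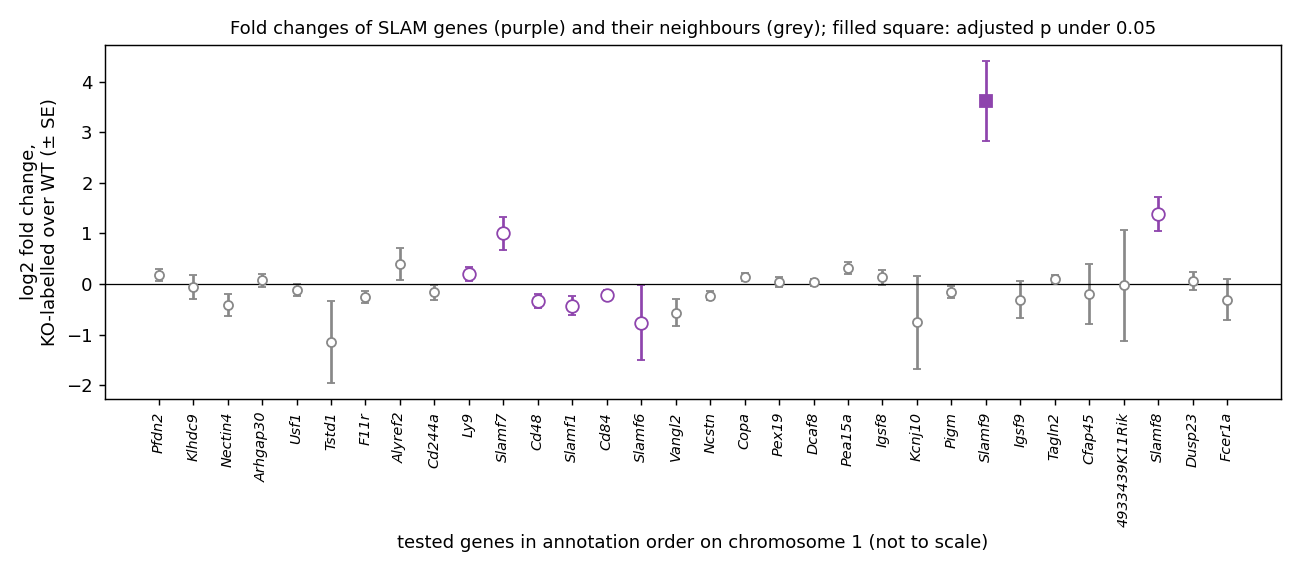
log2 fold change (KO-labelled over WT, ± SE) of the members in purple and their tested neighbours in grey, in annotation order on chromosome 1 and not to scale; the filled square passed the threshold. Slamf9 stands at 3.62 and Slamf8 at 1.39, while Pigm and Igsf9, the tested genes flanking Slamf9, lie at -0.16 and -0.31.

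Genes that go with the stem cell and progenitor gates are set beside Slamf1 and Cd48, and 1.97% of all tested genes passed in either direction. Of 29 tested genes of the CD150-positive, CD48-negative stem cell list, 0 rose and 2 fell, among them Ifitm1. Ifitm1, an interferon-inducible membrane protein, had 164, 146 and 128 CPM in KO libraries 1 to 3, against 323 and 299 CPM in WT libraries 1 and 2 (log2 fold change -1.09 ± 0.10, edgeR adjusted p = 1.92e-04). Procr, a marker of stem cells, had 77.3, 57.1 and 57.7 CPM in KO-labelled libraries and 58.4 and 61.7 CPM in WT libraries, which overlap. Hlf, a stem cell transcription factor, had 595 to 667 CPM in KO-labelled libraries and 522 and 553 CPM in WT libraries (edgeR adjusted p = 0.216). The list median was -0.03. Without WT library 1, 0 genes of this list fell, and without WT library 2, 1 did.

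Of 27 tested genes of the CD48-positive progenitor list, 5 rose and 3 fell, and the median was -0.06. Those that rose were Ccr9, Lsp1, Ly6c2, Mki67 and Cd52, and those that fell were Prtn3, Ctsg and Csf2rb. Their log2 fold changes ran from 0.33 (Mki67, a proliferation marker) to 1.37 (Ccr9, a chemokine receptor of lymphoid progenitors) and from -1.07 (Csf2rb, a cytokine receptor chain) to -0.67 (Ctsg, a neutrophil granule protease). Cd52, a small lipid-anchored surface protein as CD48 is, had 87.3, 90.2 and 75.5 CPM in KO libraries 1 to 3, against 47.4 and 55.0 CPM in WT libraries 1 and 2 (log2 fold change 0.72 ± 0.12, edgeR adjusted p = 0.00657). Flt3, the cytokine receptor of lymphoid-primed progenitors, had 402, 643 and 456 CPM in KO-labelled libraries and 529 and 481 CPM in WT libraries. KO library 2, which had the lowest Slamf1 and, among KO-labelled libraries, the highest Cd48, also had the highest Flt3. Without either WT library, 0 genes of this list rose and 0 fell.

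Slamf7, Slamf8 and Slamf9 are known from dendritic cells, macrophages and lymphocytes, so markers of those cells are set beside them. Of 18 tested plasmacytoid dendritic cell markers, Ly6d rose and 0 fell. At an unadjusted p under 0.05, 4 were higher and 2 lower, against 6.76% and 7.02% of all tested genes. The groups did not overlap for 6 above and 2 below, against 16.5% and 16.3% of all tested genes. Ly6d, a lymphoid surface protein, had 8.8, 12.5 and 12.9 CPM in KO libraries 1 to 3, against 3.5 and 2.48 CPM in WT libraries 1 and 2 (log2 fold change 1.93 ± 0.29, edgeR adjusted p = 0.00443), and it did not pass when either WT library was left out. Siglech, the defining surface receptor of these cells, had 5.79, 4.02 and 2.76 CPM in KO-labelled libraries and 1.37 and 1.36 CPM in WT libraries. It did not pass in edgeR (log2 fold change 1.62 ± 0.45, adjusted p = 0.101) but did in DESeq2. KO library 3 had the most Slamf9 and the most Ly6d and, among KO-labelled libraries, the least Siglech.

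Tcf4, a transcription factor of plasmacytoid cells that progenitors express too, had 152, 197 and 174 CPM in KO-labelled libraries, against 231 and 208 CPM in WT libraries (edgeR adjusted p = 0.171). Klk1 and Cd209d, which also mark plasmacytoid cells, were at 0.179 CPM or less in all 5 libraries. Spib and Bst2, of the same list, were higher in every KO-labelled library than in both WT libraries. Their log2 fold changes were 1.10 ± 0.46 and 0.24 ± 0.11 (edgeR adjusted p = 0.307 and 0.359). Lair1 was lower in every KO-labelled library than in both WT libraries, at -0.28 ± 0.12 (edgeR adjusted p = 0.307). The summed level of the 20 markers was 485 to 599 CPM in KO-labelled libraries and 587 and 556 CPM in WT libraries. The groups overlap in that sum, to which Tcf4 and Runx2 contribute most. The part of such cells in the Slamf9 result was not tested.

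Of 20 tested macrophage and conventional dendritic cell markers, 0 rose and 0 fell by edgeR. At an unadjusted p under 0.05, 3 were higher and 1 was lower, against 6.76% and 7.02% of all tested genes. DESeq2 called Xcr1 higher and Csf1r lower, and limma called Csf1r lower. The macrophage complement genes were low in both groups, and none of the 3 passed. C1qa had 3.65, 3.22 and 1.9 CPM in KO-labelled libraries, against 4.24 and 4.66 CPM in WT libraries (log2 fold change -0.60 ± 0.38). C1qb had 2.19, 3.76 and 3.59 CPM in KO-labelled libraries, against 2.37 and 2.69 CPM in WT libraries (0.33 ± 0.41), and C1qc had a log2 fold change of 0.29 ± 0.41. Xcr1, a chemokine receptor of conventional dendritic cells, had 13.0, 7.55 and 13.4 CPM in KO-labelled libraries and 5.14 and 4.78 CPM in WT libraries (edgeR adjusted p = 0.0573). Clec9a and Hmox1 were also higher in every KO-labelled library than in both WT libraries. Their log2 fold changes were 0.65 ± 0.25 and 0.72 ± 0.26 (edgeR adjusted p = 0.26 and 0.232). Csf1r was lower in every KO-labelled library than in both WT libraries, at -0.65 ± 0.16 (edgeR adjusted p = 0.0674). The macrophage marker Marco had 0, 4 and 12 counts in KO libraries 1 to 3, against 0 and 0 counts in WT libraries 1 and 2. The summed level of the 21 markers was 781 to 981 CPM in KO-labelled libraries and 949 and 863 CPM in WT libraries, most of it from Flt3 and then Lyz2. Their part in the Slamf8 result was not tested.

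Of 21 tested T and NK cell markers, 0 rose and Klrb1c fell, against 0.79% and 1.18% of all tested genes. At an unadjusted p under 0.05 (edgeR), 0 were higher and 1 lower, against 6.76% and 7.02% of all tested genes. The groups did not overlap for 3 above and 3 below, against 16.5% and 16.3%. The list median was 0.22, and it was -0.015 with limma and -0.07 without KO library 1. Klrb1c, the NK1.1 antigen that lineage sorting can remove, had 24.2, 15.8 and 21.3 CPM in KO libraries 1 to 3, against 38.7 and 44.1 CPM in WT libraries 1 and 2 (edgeR adjusted p = 0.00826), and it did not pass when either WT library was left out. Ncr1, which defines NK cells, had 0.526, 0.154 and 0 CPM in KO-labelled libraries, against 1.37 and 0.639 CPM in WT libraries. Ncr1 did not pass (log2 fold change -2.14 ± 1.37, edgeR adjusted p = 0.546). Other NK and cytotoxic genes of the list went both ways. Klrk1 (log2 fold change 0.53), Klrd1 (1.04), Gzmb (0.60) and Prf1 (0.55) averaged higher in KO-labelled libraries. Eomes (-0.60) and Tbx21 (-0.88) averaged lower, and none of these genes passed. Cd3g, a chain of the T cell receptor complex, had 2.33, 1.05 and 1.06 CPM in KO-labelled libraries, against 0.734 and 0.333 CPM in WT libraries. Its log2 fold change was 1.48 ± 0.81 (edgeR adjusted p = 0.459). Further T cell genes of the list went both ways, and none passed. Cd3e (log2 fold change 0.72), Cd3d (0.12), Cd8b1 (1.33), Cd5 (0.52) and Lck (0.31) averaged higher in KO-labelled libraries. Cd4 (-0.73), Cd28 (-0.43) and Cd8a (-0.10) averaged lower. The summed T and NK level was 174 to 201 CPM in KO-labelled libraries and 201 and 203 CPM in WT libraries, and Nkg7 contributed more to it than any other gene. Of 20 tested B and plasma cell markers, Fcrla, Sdc1 and Xbp1 rose and 0 fell, with a list median of 0.37. Of all tested genes, 0.79% rose and 1.18% fell. At an unadjusted p under 0.05 (edgeR), 4 of this list were higher and 0 lower, against 6.76% and 7.02% of all tested genes. The groups did not overlap for 5 above and 0 below, against 16.5% and 16.3%.

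Sdc1, the plasma cell surface proteoglycan CD138, had 26.7, 25.3 and 29.9 CPM in KO libraries 1 to 3, against 14.3 and 15.9 CPM in WT libraries 1 and 2 (log2 fold change 0.85 ± 0.16, edgeR adjusted p = 0.0147). Xbp1, a transcription factor of secretory cells, had 216, 200 and 237 CPM in KO-labelled libraries and 149 and 146 CPM in WT libraries. The summed B and plasma level was 634 to 980 CPM in KO-labelled libraries and 775 and 536 CPM in WT libraries, and Jchain, the immunoglobulin joining chain, contributed more to it than any other gene. Jchain had 363, 263 and 585 CPM in KO libraries 1 to 3, against 490 and 269 CPM in WT libraries 1 and 2, with overlapping groups (log2 fold change 0.09 ± 0.51, edgeR adjusted p = 0.968). KO library 3 was highest for Jchain, Fcrla, Sdc1 and Xbp1, and for Slamf7, Slamf8 and Slamf9. The part of B and plasma cells in the Slamf7 result was not tested. Of this list, 0 genes rose when KO library 3 or either WT library was left out.

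**Figure D4:**
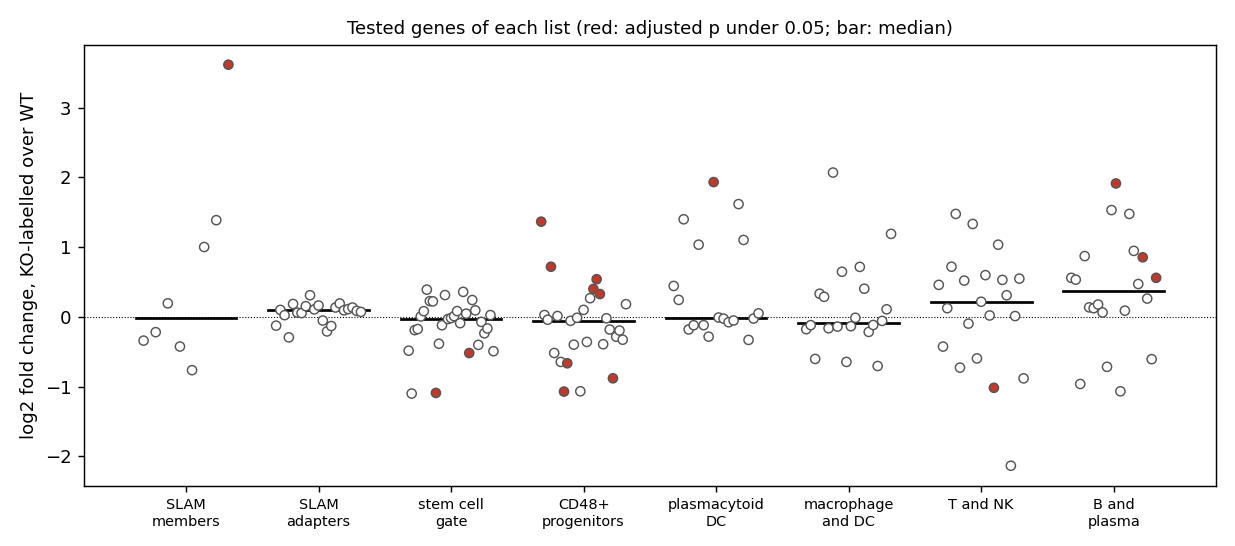
log2 fold change (KO-labelled over WT) of every tested gene of the 8 members and of 7 lists as points, with the median as a bar and genes past the threshold in red. Slamf9 is the 1 red point among the members, and the medians of the plasmacytoid (-0.02), macrophage (-0.09) and adapter (0.09) lists lie close to 0, while the T and NK median is 0.22 and the B and plasma median 0.37.

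The genes whose profile over the 5 libraries was most like that of a member were found by the root mean square difference of centred log2(CPM + 0.1), among 12728 genes with a mean of at least 1 CPM. For Slamf1 they were Adamts3 (0.0458), Dennd2c (0.0479) and Pstk (0.0481). For Cd48 they were Rras2 (0.0291), Zfp599 (0.0423) and Uvssa (0.0434). For Slamf9 the nearest was Chst1, a carbohydrate sulfotransferase, at 0.333. It had 5.45, 6.78 and 11.01 CPM in KO libraries 1 to 3, against 0.133 and 0.716 CPM in WT libraries 1 and 2, with its highest value in KO library 3 and its lowest in WT library 1, as for Slamf9. Oosp1 (0.52) and Gm12070 (0.732) were next. With 5 libraries, which share 1 set of depths, this is a description of likeness only.

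**Figure D5:**
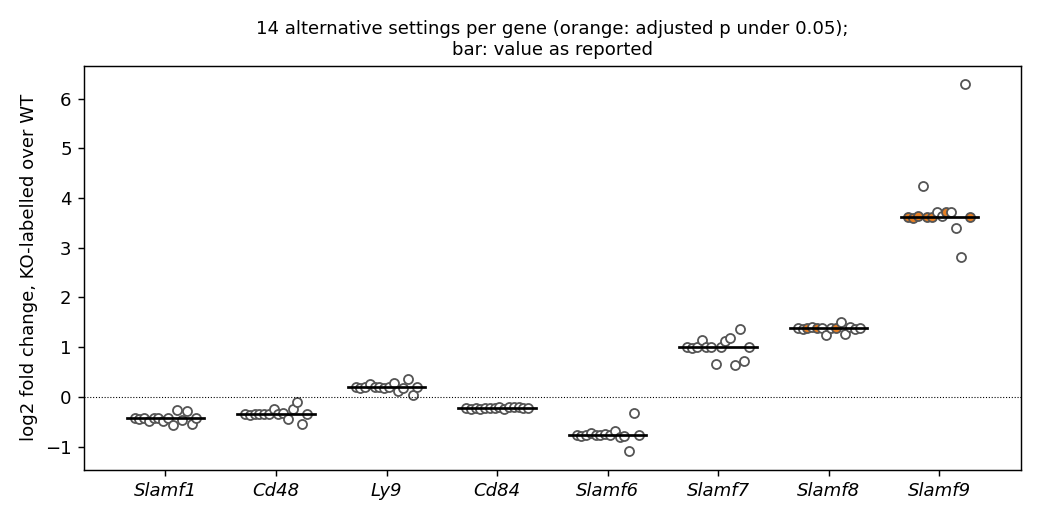
log2 fold change (KO-labelled over WT) of each member under 14 alternative settings (points; orange where the adjusted p is under 0.05) and as reported (bar). Slamf9 lies at 2.81 or above in all 14 and is orange in 7, Slamf8 lies between 1.25 and 1.5 and is orange in 3, and the other 6 members are orange in none.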

How the data were processed

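Messenger RNA of sorted LSK cells was measured in 3 KO-labelled and 2 WT libraries after a stranded preparation, per the labels' protocols. The deposited values are raw counts for 33862 RefSeq transcripts. The processing notes of the submitters name featureCounts, Subread 1.4.5-p1, STAR and build mm9; for settings, strand use and shared reads the sources used here give nothing, so overlapping or antisense genes cannot be told apart.

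Symbols came from RefSeq (33485 transcripts) and GENCODE (188) tables; 189 kept their ID. The transcript with the most counts was kept per gene, and transcript lengths came from GENCODE. After filterByExpr and TMM scaling, edgeR 4.0.16 under R 4.3.3 gave two-sided quasi-likelihood tests with robust dispersions, adjusted over 14565 genes (Benjamini-Hochberg) and called at 0.05. CPM are per TMM-adjusted total, and the SE is the log2 fold change over the root of F. Alternatives used DESeq2 1.42.0, limma 3.58.1, other scalings and filters, other transcript choices, replicate number as a block, and leaving out single libraries. The exact permutation test used scipy 1.17.1. The edgeR test was tried on simulated counts of the tested genes, with 50 genes changed at each fold. It recovered 40%, 54%, 76% and 80% of changes of 1.5-, 2-, 4- and 8-fold. Of its calls, 7.41% were unchanged genes. A gene that did not pass may therefore still have changed. Floors cover counting error only.

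Members and lists were chosen with earlier results of these data known. The text names all members and their partners, list genes past the threshold or of highest mean CPM, and the 3 nearest profiles. Markers named for defining a cell type, flanking genes, the adapters and Fyn were chosen after their values were seen. So were C1qb, C1qc, Cd3g, Jchain, Tagln2, Spib, Bst2, Lair1, Clec9a, Hmox1, Csf1r, Klrk1, Klrd1, Gzmb, Prf1, Eomes and Tbx21. The same holds for Ly6a, Cd3e, Cd3d, Cd8b1, Cd5, Lck, Cd4, Cd28 and Cd8a. The targeted gene and some list genes are not reported here. Same-numbered KO-labelled and WT libraries deviated together at correlations of 0.07 and 0.02, and no label pairs them.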

Additional observations from a re-analysis of the deposited data

How the results depend on the processing

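The directions of all 8 members held under the 14 alternatives, and their calls did not all. Members past the threshold numbered 2 with DESeq2 and with no count filter (Slamf8 and Slamf9), 0 with limma and sample weights, 0 with all transcript rows summed, 0 with the replicate block, and 0 to 2 with 1 library left out. Genes past the threshold (all, higher, lower) numbered 575, 264 and 311 with DESeq2 and 624, 247 and 377 with limma. They numbered 455 and 200 (all, higher) with no count filter. With every transcript row tested, 449, 182 and 267 rows passed. These are rows and not genes, since 1 gene can have several rows. With the replicate block, genes past the threshold numbered 160, 54 and 106, although replicate numbers do not pair the libraries. Leaving out single libraries gave ranges of 6 to 675, 2 to 312 and 4 to 363; a lone WT library is then assumed to vary like the others. Under the block, Slamf9 had an adjusted p of 0.0849 and a log2 fold change of 3.72. The Slamf1 to Cd48 difference (log2) ranged from -0.25 to 0.16 with 1 library left out and was -0.25 with the replicate block. The Cd2 log2 fold change was -0.092 with limma and ran from -0.33 (without KO library 1) to 0.76 (without KO library 2), against 0.46. The cause of these changes was not tested. Slamf9 had 1 and 16 counts in the WT libraries, and its fold change is uncertain to the extent given by leaving out each.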
